A study of Mus musculus with 6 samples.

Results

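The genes described here lie in the segment of mouse chromosome 11 that Dp(11)17/+ mice carry in an extra copy, and they are best known from organs other than the hippocampus. They were listed by name as Aldh3a1, Aldh3a2, Slc47a1, Slc47a2, Kcnj12, Tnfrsf13b, Drc3 and Myo15, with Natd1 added as a less studied neighbour, 9 genes in all. Probe sets annotated to exactly 1 of these symbols were taken, which gave 9 probe sets for 8 genes, of 45037 probe sets and 18193 genes on the array. Slc47a2 had no such probe set and was not analysed here. Drc3 had 2 probe sets and is reported by the brighter one, with the dimmer beside it, and each of the other 7 genes had 1.

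Hippocampus RNA from 3 Dp(11)17/+ mice was compared with that from 3 +/+ mice, with 1 Affymetrix array for each mouse. Dp(11)17/+ mice have 3 copies of the segment and +/+ mice have 2, and the submitters use the line to model Potocki-Lupski syndrome, a developmental disorder of people with the matching duplication. The labels give male sex, an age of 11 to 14 weeks and a C57BL/6-Tyr c-Brd background for all 6 animals. The values are signals on the log2 scale as made by RMA (robust multi-array average), so a difference of 1 is a 2-fold difference. Each array is a different individual, and with so few arrays the precision of all values is limited.

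An extra gene copy gives more template for transcription where a gene is active, and may add nothing that can be measured where it is silent. Most of the genes here serve in specialised cells. Aldh3a1 and Aldh3a2 encode aldehyde dehydrogenases: the first is abundant in the cornea and stomach, and the second clears long-chain fatty aldehydes in most tissues, with its loss in people causing Sjögren-Larsson syndrome. Slc47a1 and Slc47a2 encode exporters of organic cations, best known from the kidney. Kcnj12 encodes the inward rectifier potassium channel Kir2.2 of heart, muscle and some neurons. Tnfrsf13b encodes TACI, a receptor of B cells for the cytokines BAFF and APRIL. Drc3 encodes a subunit of the nexin-dynein regulatory complex of motile cilia and sperm tails. Myo15 encodes the unconventional myosin that builds the stereocilia of inner ear hair cells and is mutated in shaker-2 mice. Natd1 encodes a small protein with an N-acetyltransferase domain.

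Some arrays stood apart from their labels or their group. In Dp(11)17/+ replicate 1, Xist, the RNA of the inactive X chromosome, was at 9.13, against 3.06 to 3.69 in the other 5 mice, and the Y-linked Eif2s3y was at 2.48, against 5.41 to 6.01, although that mouse is labelled male. Markers of the striatum, 13 of 15 listed genes measured, averaged 1.08 and 1.84 above the +/+ mean in Dp(11)17/+ replicates 1 and 3, and those of thalamus and habenula 1.51 above it in replicate 3. The mean of 9 dentate granule cell markers differed from the +/+ mean by -0.84, 0.75 and -1.87 in Dp(11)17/+ replicates 1, 2 and 3. In +/+ replicate 3, transcripts of spermatids were higher than in any other mouse: Prm1, a protamine gene, was at 6.86, against 4.92 to 5.19 in the other 5 mice, and Tnp1, a transition protein gene, at 4.87, against 2.50 to 2.72. The differences of the 8 genes were also computed without each mouse in turn, while values of other genes and of lists are given over all 6 mice.

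The signals of the probe sets fell into a visible range and a dim one. Natd1 averaged 6.67 over the 6 arrays, higher than 81.7% of all probe sets, and Aldh3a2 averaged 5.99, higher than 75.6%. The other 7 probe sets averaged between 2.78 (Aldh3a1) and 4.35 (Drc3, brighter probe set). As a scale for dim signal, 109 genes of families not known for work in the hippocampus (olfactory and vomeronasal receptors and hair keratin-associated proteins) had a median of 2.79, with 95% of them at or below 3.80 and the highest at 5.79. Natd1 and Aldh3a2 were above all 109. Slc47a1 at 4.19, Kcnj12 at 4.19 and the brighter Drc3 probe set at 4.35 were each exceeded by 5 of the 109. Myo15 at 3.54, the dimmer Drc3 probe set at 3.28, Tnfrsf13b at 3.09 and Aldh3a1 at 2.78 lay within the bulk of that scale, with 10, 17, 29 and 57 of the 109 genes above them. Probe sets differ in how strongly they bind their target, so these positions describe signal and give no order of RNA amounts between genes.

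**Figure D1:**
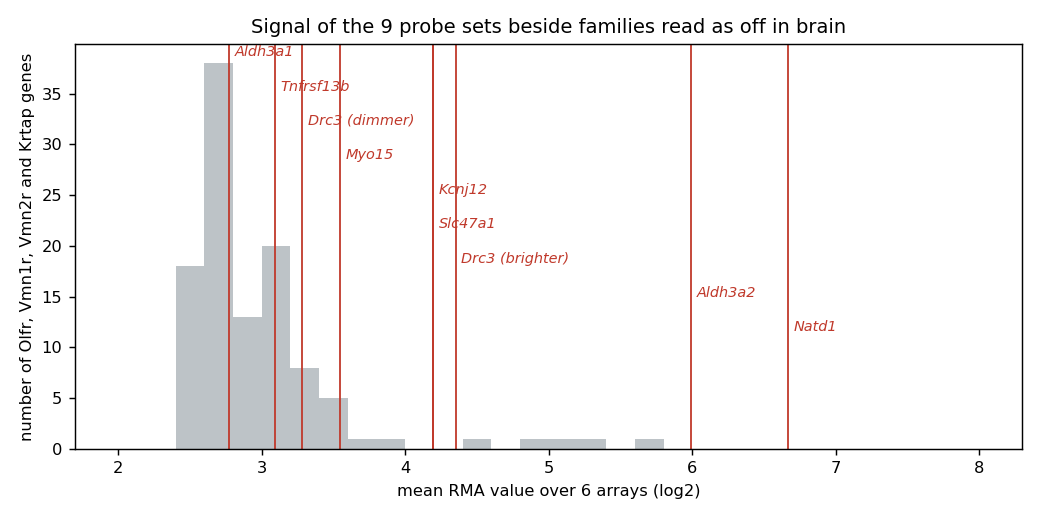
Mean RMA value of each of the 9 probe sets over the 6 arrays (red lines, log2) on a histogram of the 109 olfactory receptor, vomeronasal receptor and keratin-associated protein genes (grey, number of genes on the vertical axis). Natd1 and Aldh3a2 stand to the right of all 109, and Aldh3a1 at 2.78 stands near their median of 2.79.

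The start regions of the genes also differed in base composition. Promoter windows of 300 bases, 250 before and 50 after the annotated start, were taken from a table of RefSeq sequences (GRCm38.p6), with a match for 7 of the 9 genes. Windows of Aldh3a1 and Slc47a1 were not used here. Those of Natd1, Aldh3a2 and Myo15 are shown because they span the range of content in CG, the dinucleotide at which mammalian DNA is methylated and that is dense in CpG-island promoters, and capitals mark each CG.
Natd1 promoter, chr11:60913743-60914042, minus strand: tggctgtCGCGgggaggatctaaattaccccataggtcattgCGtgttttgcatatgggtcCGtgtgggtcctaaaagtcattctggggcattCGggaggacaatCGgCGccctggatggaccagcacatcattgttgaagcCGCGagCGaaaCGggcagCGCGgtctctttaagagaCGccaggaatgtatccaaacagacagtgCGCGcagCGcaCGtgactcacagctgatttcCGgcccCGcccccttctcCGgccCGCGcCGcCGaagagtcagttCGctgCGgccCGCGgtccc
Aldh3a2 promoter, chr11:61267137-61267436, minus strand: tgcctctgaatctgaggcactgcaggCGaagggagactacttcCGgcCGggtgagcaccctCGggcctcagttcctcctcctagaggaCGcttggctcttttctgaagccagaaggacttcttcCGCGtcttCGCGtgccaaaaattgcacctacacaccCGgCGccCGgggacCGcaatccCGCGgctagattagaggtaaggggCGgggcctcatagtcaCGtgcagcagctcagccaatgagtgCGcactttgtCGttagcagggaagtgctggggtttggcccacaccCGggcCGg
Myo15 promoter, chr11:60469089-60469388, plus strand: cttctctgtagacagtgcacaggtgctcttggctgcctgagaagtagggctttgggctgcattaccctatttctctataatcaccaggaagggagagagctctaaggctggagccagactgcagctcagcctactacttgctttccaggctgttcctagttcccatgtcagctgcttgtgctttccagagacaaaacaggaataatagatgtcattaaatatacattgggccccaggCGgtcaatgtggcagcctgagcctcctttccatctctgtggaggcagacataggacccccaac

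The Natd1 window held 29 CG, an observed over expected ratio of 1.05 that is above 95.1% of 21262 windows of protein-coding genes, and the Aldh3a2 window held 21, a ratio of 0.74 against a median of 0.57. The Myo15 window held 1, a ratio of 0.05 that is above 5.24% of windows. Among the dim genes, Kcnj12 held 4 CG and Tnfrsf13b 8, with ratios of 0.16 and 0.35, whereas Drc3, also dim, held 12 at a ratio of 0.83. The unmeasured Slc47a2 had 23 and a ratio of 0.85. The letters CCGCCC, searched on both strands, were found in the windows of Natd1, Aldh3a2 and Slc47a2, and 46.2% of all windows hold them. The letters CCAAT, searched in the same way, were in those of Aldh3a2, Drc3 and Myo15, and 38.2% of all windows hold them. The letters TATAAA, in 12.6% of all windows on either strand, were in 0 of the 7. A match describes letters and no use of them by a factor, and with so few genes no relation of composition to signal was tested.

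Between the genotypes, Natd1 was the 1 gene of the 8 with a clear separation. Of the 8 genes, 5 were higher and 3 lower in Dp(11)17/+ mice, with a median log2 difference of 0.10, against -0.02 over all 18193 genes. By limma with Benjamini-Hochberg adjustment over all 45037 probe sets, 0 of the 9 probe sets passed an adjusted p of 0.05, as did 0% of all probe sets, and the smallest adjusted p among them was 0.994. At an unadjusted p under 0.05, 1 of the 8 genes was higher, where 1.15% of all genes were higher and 2.01% lower. Natd1 was also the 1 gene of the 8 with every Dp(11)17/+ mouse above every +/+ mouse, which 2.7% of all genes showed, and 0 of the 8 had every Dp(11)17/+ mouse below, which 5.59% showed. The smallest p that exact permutation of 3 against 3 mice allows, two-sided and with 20 labelings, is p = 0.1, and Natd1 reached it.

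**Figure D2:**
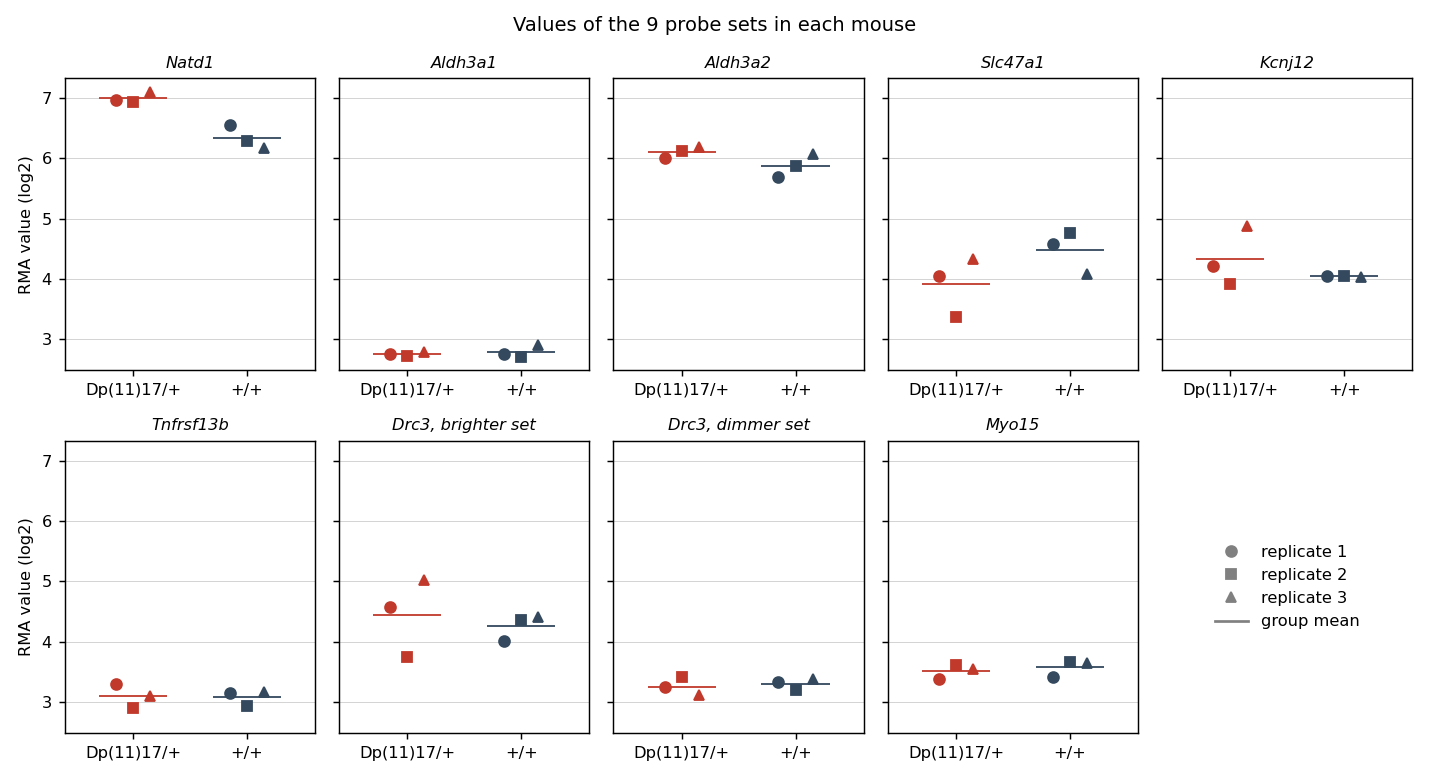
RMA values (log2, vertical axis) of the 9 probe sets in each of the 3 Dp(11)17/+ mice (red, left) and 3 +/+ mice (dark blue, right), with bars at the group means and marker shapes for the replicate. The groups separate for Natd1, whose Dp(11)17/+ values lie between 6.93 and 7.10 and +/+ values between 6.17 and 6.55, and overlap for the other 8 probe sets.

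Natd1 had values of 6.96, 6.93 and 7.10 in Dp(11)17/+ replicates 1, 2 and 3, against 6.55, 6.29 and 6.17 in +/+ replicates 1, 2 and 3. The Dp(11)17/+ mice were close to each other, and the lowest of them was above the highest +/+ mouse. The means were 6.999 ± 0.093 in Dp(11)17/+ and 6.34 ± 0.20 in +/+ mice (SD, n = 3 each), a log2 difference of 0.66 (SE 0.12, 95% confidence interval 0.38 to 0.94) or 1.58-fold, with an unadjusted limma p of 0.000754 and an exact permutation p of 0.1. The interval holds 0.58, the log2 value of the copy ratio of 1.5. Leaving out each mouse in turn, the difference stayed between 0.58 and 0.77, and it was 0.68 without Dp(11)17/+ replicate 1, the mouse with high Xist. Dp(11)17/+ replicate 2, the mouse without raised striatal markers, was 0.59 above the +/+ mean.

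The genes whose values followed those of Natd1 most closely across the mice were found among 7103 genes with a mean of 6 or more, by the mean absolute distance between values centred on each gene's own mean. They were Itih5, an inhibitor heavy chain gene on chromosome 2, at a distance of 0.08, Llgl1, a cell polarity gene of the same segment, at 0.09, and Mfsd2a, a lipid transporter gene of brain endothelium on chromosome 4, at 0.09. Mfsd2a had values of 7.04, 6.67 and 6.96 in Dp(11)17/+ mice and 6.54, 6.26 and 6.10 in +/+ mice. All of these patterns share the same 6 arrays, and the likeness over 6 points is a description.

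Aldh3a2 had the second brightest signal of the group and a small difference between genotypes. Its values were 6.00, 6.11 and 6.19 in Dp(11)17/+ mice, against 5.70, 5.87 and 6.08 in +/+ mice. The highest +/+ mouse lay above the lowest Dp(11)17/+ mouse, so the groups overlapped. The means were 6.10 ± 0.10 in Dp(11)17/+ and 5.88 ± 0.19 in +/+ mice (SD, n = 3 each), a log2 difference of 0.22 (SE 0.12, unadjusted limma p = 0.0986, exact permutation p = 0.2) or 1.17-fold. Its 95% confidence interval of -0.05 to 0.50 held 0 and did not reach 0.58. The interval did hold 0.44, the mean difference of 19 other segment genes with a mean of 6 or more. Without +/+ replicate 3, the mouse with high spermatid transcripts, the difference was 0.32, past 0.05 by limma before adjustment and with an adjusted p of 1, and without +/+ replicate 1 it was 0.13. Dp(11)17/+ replicate 2 alone was 0.23 above the +/+ mean. The gene's mean of 5.99 lies just under the floor of 6 that separates bright from dim genes here. After its values were seen, its nearest patterns were looked up in the same way as for Natd1, and were those of Inppl1, Rapgef1 and Slc2a8, at distances of 0.05, 0.06 and 0.06.

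Aldh3a1, next to Aldh3a2 on the chromosome, had values of 2.76, 2.72 and 2.79 in Dp(11)17/+ mice and 2.76, 2.71 and 2.91 in +/+ mice. All 6 sat in the range of the families used as a dim scale, and the log2 difference was -0.03 (SE 0.09). Of 7 markers of cornea and other stratified epithelia, 6 had values between 3.01 and 4.05 in all mice, while Krt12 varied from 3.84 to 7.23 in Dp(11)17/+ mice and from 4.998 to 6.246 in +/+ mice. Of the 18 other aldehyde dehydrogenase genes, 8 were higher and 10 lower in Dp(11)17/+ mice with a median log2 difference of -0.03. Of the 18, 0 passed the adjusted test, as did 0% of all probe sets. Aldh1a2, the retinoic acid synthesising enzyme that is also a marker of meninges, had the smallest p in the family, at a log2 difference of -0.65 (SE 0.19, unadjusted limma p = 0.0124, exact permutation p = 0.1). It was followed by Aldh16a1 at -0.20 and by Aldh1l1, an enzyme of astrocyte folate metabolism, at 0.25. Among 7 genes of sphingosine phosphate and phytanic acid metabolism, routes that can lead to fatty aldehydes, 3 were higher and 4 lower with a median of -0.0049. The 3 with the smallest p were the sphingosine kinase genes Sphk2 at 0.46 and Sphk1 at -0.24, and Hacl1, a lyase of fatty acid alpha oxidation, at -0.20.

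Slc47a1 had the lowest difference of the group and wide spread in both genotypes. Its values were 4.06, 3.37 and 4.33 in Dp(11)17/+ mice, against 4.58, 4.76 and 4.08 in +/+ mice. Dp(11)17/+ replicate 2 was the lowest of all 6, and +/+ replicate 3 lay below Dp(11)17/+ replicate 3. The means were 3.92 ± 0.49 in Dp(11)17/+ and 4.47 ± 0.35 in +/+ mice (SD, n = 3 each), a log2 difference of -0.55 (SE 0.27, 95% confidence interval -1.20 to 0.09, unadjusted limma p = 0.0805, exact permutation p = 0.2). The value depended on single mice: it was -0.28 without Dp(11)17/+ replicate 2, -0.76 without Dp(11)17/+ replicate 3 and -0.75 without +/+ replicate 3, of which the last 2 were past 0.05 by limma before adjustment and had an adjusted p of 1.

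Because Slc47a1 is also a transcript of the brain's coverings, marker lists were set beside it. Of 11 meningeal markers, 9 were lower in Dp(11)17/+ mice, and their mean lay at 5.18 to 5.36 in Dp(11)17/+ mice and at 5.51 to 5.64 in +/+ mice. Relative to the +/+ mean, the meningeal list was at -0.27, -0.21 and -0.39 in Dp(11)17/+ replicates 1, 2 and 3, where Slc47a1 was at -0.42, -1.10 and -0.15. The mouse with the lowest meningeal mean was thus the one with the Slc47a1 value closest to the +/+ mean among the Dp(11)17/+ mice, and the part of meningeal tissue in the difference was not tested. Of 9 measured kidney markers, 3 were higher and 6 lower, and their mean was between 3.31 and 3.42 in Dp(11)17/+ mice and between 3.30 and 3.64 in +/+ mice. In tissue RNA, fewer cells of a type and less RNA per cell cannot be told apart.

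Of 10 measured transporters that share substrates or tissues with Slc47a1, 5 were higher and 5 lower in Dp(11)17/+ mice with a median log2 difference of -0.0007. Of the 10, 0 passed the adjusted test, as did 0% of all probe sets. An unadjusted p under 0.05 was given by 2, both higher, where 1.15% of all genes were, and both had every Dp(11)17/+ mouse above every +/+ mouse, as 2.7% of all genes had. Abcb1a, the drug efflux pump of the blood-brain barrier, had 5.91, 5.85 and 6.04 in Dp(11)17/+ mice and 5.68, 5.39 and 5.50 in +/+ mice, a log2 difference of 0.41 (SE 0.10, unadjusted limma p = 0.00523, exact permutation p = 0.1). Abcc4, an exporter of organic anions, had 5.39, 5.25 and 5.42 in Dp(11)17/+ mice and 5.12, 4.88 and 4.64 in +/+ mice, a difference of 0.47 (SE 0.13, unadjusted limma p = 0.00842, exact permutation p = 0.1). Abcg2, another efflux pump, followed at 0.13. Of 5 measured endothelial markers, 4 were higher and 1 lower, and their mean was 0.24, 0.12 and 0.31 above the +/+ mean in Dp(11)17/+ replicates 1, 2 and 3. The part of endothelial content in the 2 transporter values was not tested.

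The Kcnj12 difference rested on 1 mouse. Its values were 4.22, 3.91 and 4.88 in Dp(11)17/+ mice, against 4.05, 4.05 and 4.04 in +/+ mice. The +/+ mice were almost identical, Dp(11)17/+ replicate 3 was far above them and Dp(11)17/+ replicate 2 below them. The log2 difference was 0.29 (SE 0.22, 95% confidence interval -0.24 to 0.82, unadjusted limma p = 0.233, exact permutation p = 0.4). It was 0.02 without Dp(11)17/+ replicate 3, 0.50 without Dp(11)17/+ replicate 2 (limma adjusted p = 0.785) and -0.13 with Dp(11)17/+ replicate 2 alone. The order of the Dp(11)17/+ mice, replicate 3 above 1 above 2, was that of the striatal list at 1.84, 1.08 and -0.13, but also that of 8 of the 22 lists in all, among them choroid plexus at 1.18, 0.84 and -0.70. In +/+ mice Kcnj12 stayed within 0.01 of its mean, while the striatal list was at -0.15, 0.35 and -0.20. The part of neighbouring tissue in the Kcnj12 value was not tested. Of 11 muscle markers, 4 were higher and 7 lower, with list means of 3.68 to 4.01 in Dp(11)17/+ mice and 3.67 to 3.95 in +/+ mice, and 8 of the 11 had a mean under 4. The others were Acta1, the skeletal actin gene, at 5.54 to 5.94 over all mice, and Myh7 and Tnnc1, genes of slow muscle myosin and troponin. Myh7 was at 7.24, 4.42 and 5.58 in Dp(11)17/+ mice and at 4.55, 6.78 and 5.67 in +/+ mice. Tnnc1 was at 5.86, 4.20 and 7.67 in Dp(11)17/+ mice and at 4.79, 4.69 and 4.53 in +/+ mice, so that Dp(11)17/+ replicate 3 was the highest, as for Kcnj12. Of the 14 other inward rectifier genes, 6 were higher and 8 lower with a median of -0.02. By limma, 0 of the 14 had an unadjusted p under 0.05, where 1.15% of all genes were higher and 2.01% lower. The 3 with the smallest p were Kcnj1 and Kcnj15, both at -0.14, and Kcnj10, the channel of astrocytes, at 0.14.

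Drc3 showed the same spread between Dp(11)17/+ mice at its brighter probe set. The values there were 4.57, 3.74 and 5.02 in Dp(11)17/+ mice, against 4.02, 4.35 and 4.41 in +/+ mice. Dp(11)17/+ replicates 2 and 3 were the lowest and the highest of all 6 mice. The log2 difference was 0.18 (SE 0.30, 95% confidence interval -0.53 to 0.90), with 0.54 without Dp(11)17/+ replicate 2 (limma adjusted p = 0.74) and -0.11 without Dp(11)17/+ replicate 3. At the dimmer probe set the values were 3.24, 3.41 and 3.11 in Dp(11)17/+ mice and 3.33, 3.19 and 3.39 in +/+ mice, a difference of -0.05 (SE 0.11), with the Dp(11)17/+ mice in the opposite order. The same 8 lists shared the Dp(11)17/+ order of the brighter probe set, as did Slc47a1. In +/+ replicates 1, 2 and 3 that probe set was at -0.24, 0.10 and 0.15 from the +/+ mean, an order the striatal list did not share, and the part of neighbouring tissue was not tested.

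Of 10 other measured subunits of the nexin-dynein regulatory complex, 5 were higher and 5 lower with a median log2 difference of -0.04. Iqcd had the smallest p, at -0.24 (SE 0.10, unadjusted limma p = 0.0423, exact permutation p = 0.1), followed by Efcab2 at -0.15 and Ccdc153 at 0.48. Of 15 markers of motile cilia and ependyma, 7 were higher and 8 lower with a median of -0.03, and their mean lay between 3.89 and 4.13 in Dp(11)17/+ mice and between 3.98 and 4.11 in +/+ mice. The brightest were Rsph9 and Rsph1, radial spoke genes, at 5.78 to 6.70 and 4.24 to 5.62 in Dp(11)17/+ mice and at 6.50 to 6.80 and 4.83 to 5.45 in +/+ mice. Foxj1, the transcription factor of motile ciliated cells, was at 3.13 to 3.66 in Dp(11)17/+ mice and 3.36 to 3.58 in +/+ mice.

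**Figure D3:**
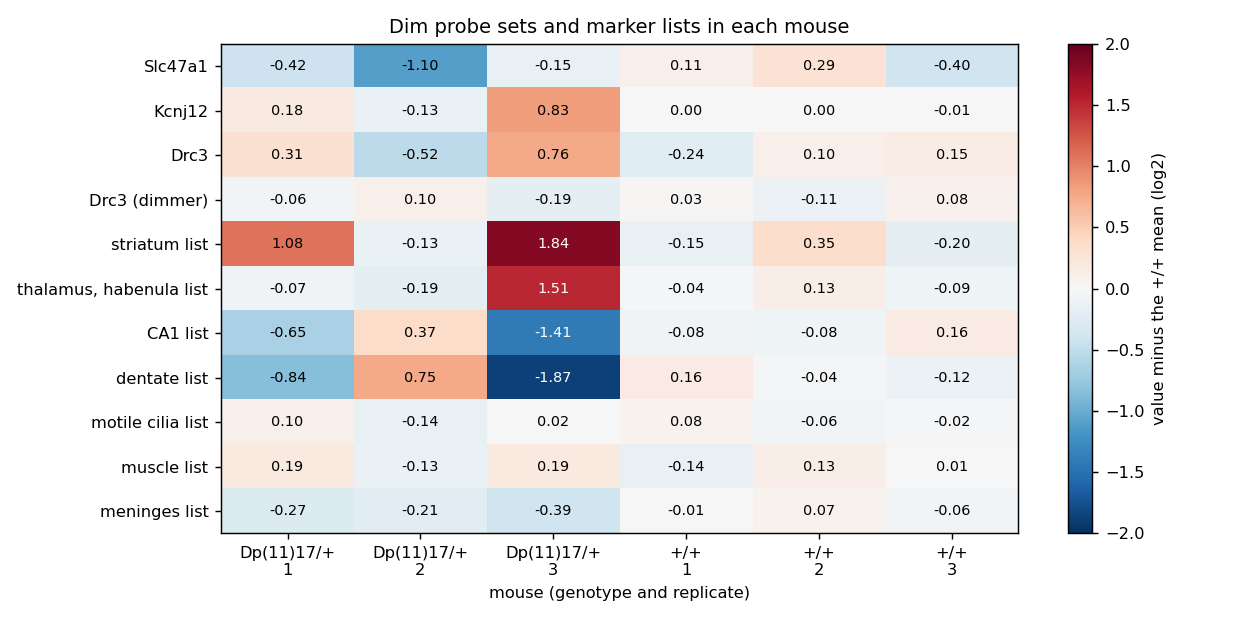
Difference of each mouse from the +/+ mean (log2, colour and printed value) for the probe sets of Slc47a1, Kcnj12 and Drc3 and for the mean of 7 marker lists, with Dp(11)17/+ mice in the left columns and +/+ mice in the right. Kcnj12 and the brighter Drc3 probe set are highest in Dp(11)17/+ replicate 3 and lowest in Dp(11)17/+ replicate 2 among the Dp(11)17/+ mice, as are Slc47a1 and the striatum, thalamus and muscle lists, while the dimmer Drc3 probe set is not.

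Tnfrsf13b and Myo15 stayed in the dim range in both genotypes. Tnfrsf13b had 3.31, 2.90 and 3.10 in Dp(11)17/+ mice and 3.14, 2.94 and 3.16 in +/+ mice, a log2 difference of 0.02 (SE 0.12, 95% confidence interval -0.27 to 0.32). Myo15 had 3.38, 3.61 and 3.55 in Dp(11)17/+ mice and 3.42, 3.66 and 3.65 in +/+ mice, a difference of -0.06 (SE 0.11, 95% confidence interval -0.31 to 0.19). The groups overlapped for both genes, and the sign of each difference turned when single mice were left out. Of 10 measured markers of B and plasma cells, 5 were higher and 5 lower, with list means of 3.25 to 3.37 in Dp(11)17/+ mice and 3.27 to 3.32 in +/+ mice.

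No partner of this receptor or this motor passed the adjusted test, which 0% of all probe sets passed. Of 7 measured ligands, sister receptors and adaptors of TACI, 1 was higher and 6 lower in Dp(11)17/+ mice with a median log2 difference of -0.08, and the 3 with the smallest p were the adaptor genes Traf5 at -0.12, Myd88 at -0.09 and Traf2 at -0.07. Of 16 measured stereocilium genes, 8 were higher and 8 lower with a median of 0.01. The 3 with the smallest p there were Eps8l2, an actin regulator, at 0.29, Cdh23, the tip link cadherin, at -0.19, and Whrn, the whirlin gene whose product Myo15 carries, at -0.15. In both lists 0 genes had an unadjusted p under 0.05 by limma, where 1.15% of all genes were higher and 2.01% lower.

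**Figure D4:**
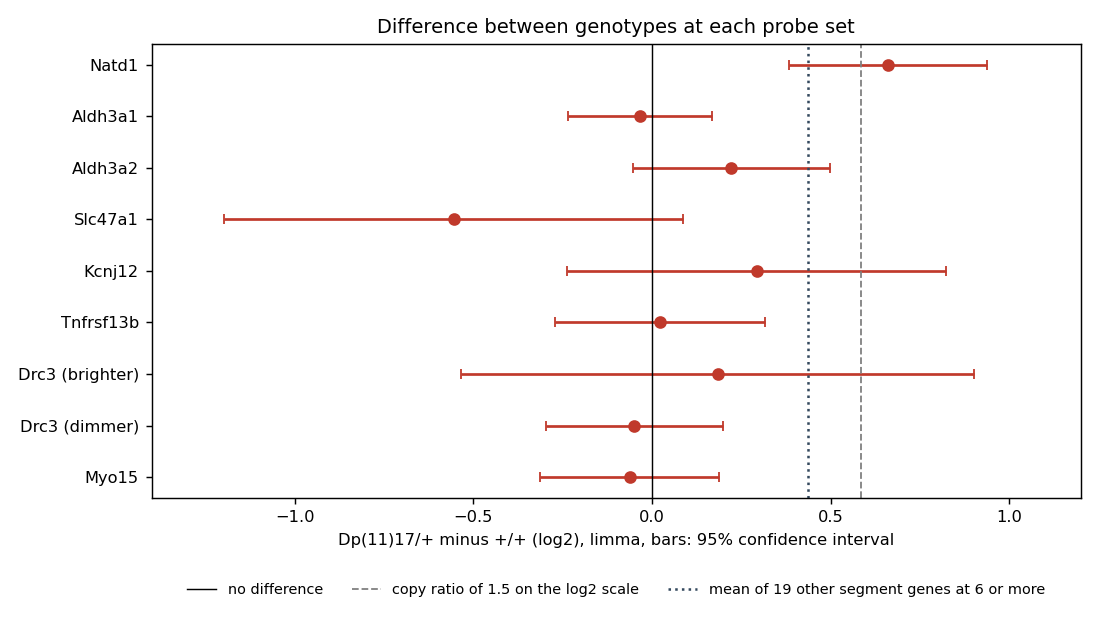
Difference between Dp(11)17/+ and +/+ mice (log2, horizontal axis) at each of the 9 probe sets with its 95% confidence interval by limma, beside 0, the mean of 19 other segment genes (0.44) and the copy ratio of 1.5 (0.58). Natd1 is the 1 probe set whose interval lies above 0, and the intervals of both Kcnj12 and the brighter Drc3 probe set hold 0 as well as 0.58.

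The rest of the duplicated segment gives the scale for these values. Besides the 8 genes, 25 genes of the segment were measured, of which 24 were higher in Dp(11)17/+ mice with a median log2 difference of 0.40. Of the 25, 19 had every Dp(11)17/+ mouse above every +/+ mouse, as 2.7% of all genes had. The 1 lower gene was Cops3 at -0.17, with every Dp(11)17/+ mouse below every +/+ mouse, as 5.59% of all genes had. The 19 with a mean of 6 or more averaged 7.90 ± 0.06 in Dp(11)17/+ and 7.46 ± 0.03 in +/+ mice (SD, n = 3 each), a difference of 0.44. That mean includes both end genes of the segment as taken here, Cops3 and Rnf112, the latter at 0.23 with overlapping groups. Whether the end genes have the extra copy was not tested. Natd1 ranked 3 of the 33 measured genes by difference, behind Alkbh5 and Llgl1, and Slc47a1 was last. Below the floor of 6, the segment held 6 genes outside the group, all higher in Dp(11)17/+ mice with a median of 0.13 and a range of 0.00 to 0.54. The highest of them was Smcr8, with a mean of 5.32, a difference of 0.54 and every Dp(11)17/+ mouse above every +/+ mouse. The 7 genes of the group below the floor were 4 higher and 3 lower with a median of 0.02 and a range of -0.55 to 0.29. Under a mean of 5, the median was 0.12 over 5 genes outside the group and -0.01 over 6 genes of the group. How much of a true difference a dim probe set registers was not tested.

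Natd1 and Aldh3a2, the genes with signal above the dim scale, were also set against the mean of those 19 bright genes within each array, and the gap was compared between genotypes by an exact two-sided permutation test. The gap of Natd1 to the 19 genes was 0.22 higher in Dp(11)17/+ mice (exact p = 0.2), and that of Aldh3a2 was lower, at -0.21 (exact p = 0.2). In both the groups overlapped, and the p was 0.267 after Benjamini-Hochberg adjustment over the 8 genes for which the exact test was run. For the 6 dimmer genes, all within the range of the dim scale, no result is drawn from it. How much such probe sets register was not tested, and one with no signal above background would give a lower gap whatever the gene does.

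**Figure D5:**
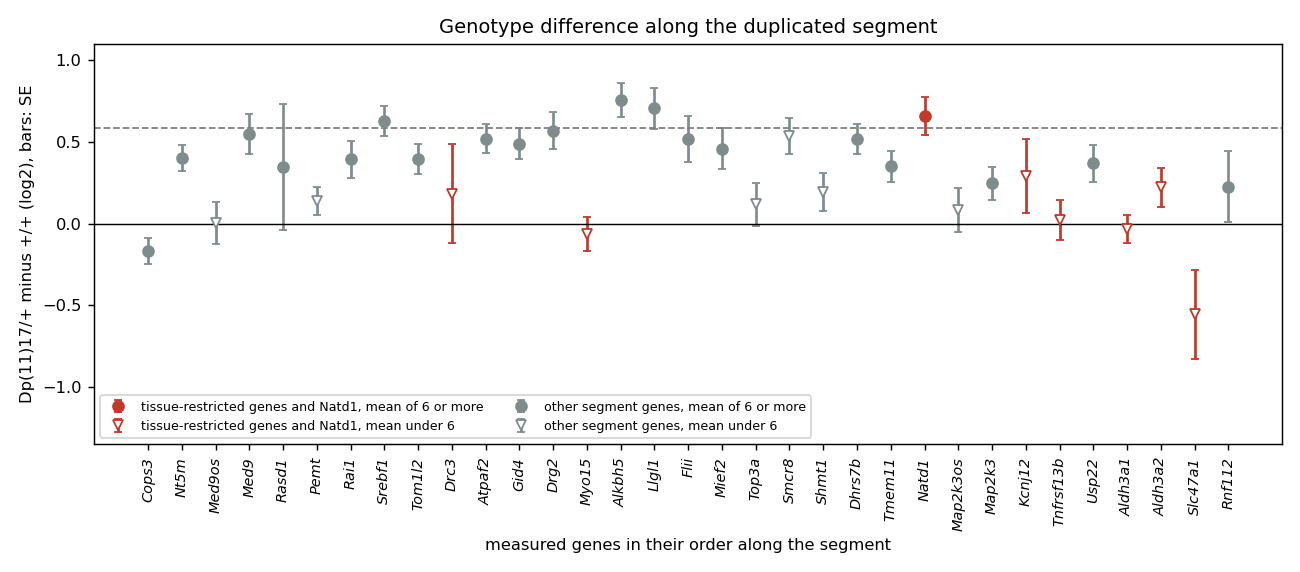
Difference between Dp(11)17/+ and +/+ mice (log2, vertical axis, bars SE) for the 33 measured genes in their order along the segment, with the genes of the group in red, other genes in grey and open triangles for genes with a mean under 6. The dashed line is the copy ratio of 1.5, and 5 of the red genes lie in the stretch from Kcnj12 to Slc47a1, between 0.29 and -0.55.

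By position, the dim genes Myo15 and Drc3 sat between measured neighbours that were higher. Kcnj12, Tnfrsf13b, Aldh3a1 and Slc47a1 each had a measured neighbour whose groups overlapped, as did Natd1 and Aldh3a2. For Kcnj12, Tnfrsf13b, Aldh3a1 and Aldh3a2 these neighbours were themselves genes of the group. The part of position in the differences was not tested. Myo15, gene 25 of the 70 in the segment, lies between the measured genes Drg2 at 0.57 and Alkbh5 at 0.76. Drc3, gene 19, lies between Tom1l2 at 0.40 and Atpaf2 at 0.52. For all 4 neighbours every Dp(11)17/+ mouse was above every +/+ mouse, as for 2.7% of all genes. Natd1, gene 51, lies between Tmem11 at 0.35 and the dim Map2k3os at 0.08. The stretch from Kcnj12, gene 56, to Slc47a1, gene 65, holds 6 measured genes, 5 of them genes of the group, and the remaining one, Usp22, was at 0.37. Kcnj12 follows Map2k3 at 0.25, and Slc47a1 precedes Rnf112 at 0.23.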

How the data were processed

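Hippocampus RNA of 3 Dp(11)17/+ and 3 +/+ mice was measured on 1-colour Affymetrix arrays. The authors deposited log2 values, 1 per probe set, made with RMA per the submitters' processing notes, and the version and any genome build are not given in the sources used here. RMA, as a method, combines the probes of a probe set after bringing all arrays to 1 distribution, so levels are relative. The extraction protocol lists other organs and the labelling protocol speaks of pools, and the sample records were followed here. The values were used as deposited.

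From 45101 probe sets, 64 controls were left out. Of the 45037 tested, 34945 had 1 symbol, 932 several and 9160 none, and 34741 were matched by Entrez identifier to a gene table (GRCm38.p6) used for names and gene order. Genes were represented by the probe set of the highest mean. The segment was taken as the genes from Cops3 to Rnf112. Groups were compared by limma 3.58.1 (R 4.3.3) with two-sided moderated statistics and Benjamini-Hochberg adjustment over all probe sets at 0.05, and single values by exact permutation tests (Python 3.11.15). The fit was tested on simulated data. The design counted 9 genes, of which 8 were measured. The genes, the lists and the rules were chosen with earlier results of these data known. All genes of the group are named, and in each family or pathway list the 3 with the smallest unadjusted p. Genes compared within the segment and single marker genes were picked after their values were seen, and so was the test of each gene against the segment mean. Alternatives were other normalizations, filters on dim probe sets, variance models, array weights, probe set choices and mice left out.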

Additional observations from a re-analysis of the deposited data

How the results depend on the processing

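By limma with adjustment over all probe sets, 0 of the 8 genes passed in every alternative with a test, and Natd1 was higher in all 14 of its settings, by 0.58 to 0.77 on the log2 scale, with adjusted p between 0.397 and 1. Array weights, a robust prior with an intensity trend, cyclic loess, median centring and renewed quantile normalization left 5 of 8 genes higher and 1 with an unadjusted p under 0.05. The mean of all probe sets of a gene, which put Drc3 at 0.07, gave the same counts. Taking the probe set with the largest SD kept the brighter Drc3 one, so it tested nothing new. The dimmer Drc3 probe set, at -0.05, was not used alone in these counts. The median over the 8 genes was 0.10, but 0.17 with array weights and 0.05 with the mean of all probe sets of a gene. With a mean of 4 or more required, 5 genes were left and their median difference was 0.22; with a mean of 6 or more, Natd1 alone was left, so 1 gene and 1 probe set were higher and the median was 0.66. A floor of 5 in place of 6 put 2 genes above it, and a floor of 7 put 0.

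Leaving out each mouse in turn, the median over the 8 genes ranged from -0.0139 to 0.17, and the count with an unadjusted p under 0.05 from 1 to 3. That count was 3 without Dp(11)17/+ replicate 2 (Natd1, Kcnj12 and Drc3), where 6.14% of all probe sets passed, against 2.82% with all mice. It was 2 without Dp(11)17/+ replicate 3 (Natd1 and Slc47a1) and 3 without +/+ replicate 3 (Natd1, Aldh3a2 and Slc47a1), where 1.9% and 1.89% of all probe sets passed. The differences of 4 genes changed sign, while Slc47a1 and Kcnj12, also dim, kept theirs with each mouse left out: Aldh3a1 ranged from -0.0761 to 0.025, Tnfrsf13b from -0.0781 to 0.12, Drc3 from -0.11 to 0.54 and Myo15 from -0.14 to 0.0044. With Dp(11)17/+ replicate 2 as the only Dp(11)17/+ mouse and no test, 3 genes were higher, the median was -0.10, and the differences were -0.13 for Kcnj12, -0.18 for Tnfrsf13b, -0.52 for Drc3 and 0.0324 for Myo15. The cause of these shifts was not tested. No paired analysis was possible because the replicate numbers follow accession order and pair no mice. With 3 mice a group and 7 of 8 genes below the floor, a difference of the size of the copy ratio could not be told from 0 for Kcnj12 or Drc3. For Slc47a1, Aldh3a1, Tnfrsf13b and Myo15 the confidence intervals stayed below that size. How much of a true difference such dim probe sets register was not tested, so no conclusion is drawn from those intervals.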

Other observations

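All 8 testis markers measured had their highest value in +/+ replicate 3, at Acrv1 by a margin within the spread of the other mice. Prm2, a protamine gene, was at 3.17, 3.48 and 3.08 in Dp(11)17/+ mice and at 2.98, 3.42 and 5.42 in +/+ replicates 1, 2 and 3. Ldhc, the lactate dehydrogenase of sperm, was at 3.15, 3.21 and 3.19 in Dp(11)17/+ mice and at 3.16, 3.20 and 4.81 in +/+ mice. Odf1, a gene of the sperm tail, was at 3.03, 3.03 and 2.99 in Dp(11)17/+ mice and at 2.92, 2.96 and 4.01 in +/+ mice. The mean over the 8 markers was 0.84 above the +/+ mean in that mouse and between -0.42 and -0.30 in the other 5. The kidney gene Kap was at 4.52, 4.82 and 4.47 in Dp(11)17/+ mice and at 4.65, 4.46 and 5.59 in +/+ mice, so it too was highest in +/+ replicate 3. Kap is 1 of 9 measured kidney markers, of which Lrp2, Cubn and Slc12a1 were highest in other mice. The mean over the 9 was 0.20 above the +/+ mean in +/+ replicate 3 and between -0.13 and -0.01 in the other 5.

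Genes of the choroid plexus differed widely between mice of the same genotype. Of 9 markers, 8 were higher and 1 lower in Dp(11)17/+ mice with a median log2 difference of 0.36. By limma, 0 of them had an unadjusted p under 0.05, where 1.15% of all genes were higher and 2.01% lower. The mean over 9 markers lay at 0.84, -0.70 and 1.18 from the +/+ mean in Dp(11)17/+ replicates 1, 2 and 3, and at 1.94, -1.06 and -0.88 in +/+ replicates 1, 2 and 3.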
